A study of Mus musculus with 2 samples.

Results

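Kinesins are motor proteins that convert ATP into movement along microtubules or into the shortening of microtubule ends. Mitotic kinesins build the spindle, align and move the chromosomes and organise the midzone at which a dividing cell is cut apart, and their mRNAs are made mainly in the later part of the cell cycle. Transport kinesins carry vesicles, organelles and protein complexes in resting and dividing cells alike, and in the liver they serve the polarised traffic of the hepatocyte, the main parenchymal cell. Partial hepatectomy (PH), the removal of most of the liver, sends the resting hepatocytes of the remnant into the cell cycle, so a regenerating liver holds both kinds of motor.

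The kinesin genes described here are those whose symbol is Kif or Kifc followed by a number and at most 1 letter from a to c, and 42 of the 33224 gene symbols were of this kind. By known function, 14 were classed as mitotic, 17 as transport and 11 as other kinesins. Hepatic RNA was sequenced as 1 library from wild type (WT) mice and 1 library from PPARβ-null mice (KO), which lack the nuclear receptor PPARβ, 48 hr after PH. Both groups were C57BL/6 males, labelled as 4 months old, while the protocol gave a range of 3 to 5 months and the series design 3 months. The targeting allele, the number of mice behind each library and any pooling were not given in the sources used here. With 1 library per genotype there was no replicate, no value carried an error between mice, and no test of genotype was possible.

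The WT library was named for lane 2 and the KO library for lane 3, so lane and genotype cannot be told apart. Expression is given as FPKM, which scales fragments to transcript length and sequencing depth and so allows levels of different genes to be compared. From the low values of single-exon genes, an FPKM of 1 on a transcript of 1 kb was estimated to rest on 54.5 fragments in WT and on 55.7 in KO. Most genes were somewhat lower in KO. Of the 15727 genes whose 2 values averaged 0.1 FPKM or more, 74.8% were lower in KO, and the middle log2 KO/WT was -0.25 once 0.1 FPKM had been added to both values. Hepatocyte genes were high, as the labelled tissue requires, with Ttr at 2503 FPKM in WT and 2406 FPKM in KO and Apoa1 at 3061 FPKM and 3503 FPKM. Ppard, the targeted gene, stood at 2.67 FPKM in WT and at 2.42 FPKM in KO, so its locus total could not check the genotype labels.

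Promoters of genes that peak in mitosis often carry a short element called CHR, bound by the MuvB complex, together with CCAAT boxes bound by NF-Y, while genes of the G1/S transition more often carry E2F sites. The stretches below show the 80 bases before the annotated start of 4 mitotic kinesin genes that hold these motifs and of Kif1c, the transport kinesin with the highest level, which holds none. The sequences are those of RefSeq on GRCm38.p6, written 5′ to 3′ on the strand of the gene. Capitals mark 3 motifs, read on either strand. CHR is spelled TTTGAA, in some genes with the variant letters TTCGAA. The CCAAT box appears as ATTGG when it lies on the other strand, where CHR in turn appears as TTCAAA. For E2F the spellings searched were TTTGGCGC, then TTTCGCGC, and lastly TTCCCGCC. In Kif15 an E2F match and a CHR match touch and form 1 run of capitals.
Kif11 (chr19:37376302-37376381, plus strand): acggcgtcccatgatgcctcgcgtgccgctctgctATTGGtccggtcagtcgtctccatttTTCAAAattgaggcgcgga
Kif22 (chr7:127042421-127042500, minus strand): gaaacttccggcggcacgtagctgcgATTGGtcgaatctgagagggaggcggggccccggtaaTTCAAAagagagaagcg
Kif15 (chr9:122951001-122951080, plus strand): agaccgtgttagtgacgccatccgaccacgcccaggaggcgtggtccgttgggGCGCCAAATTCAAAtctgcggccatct
Kif18a (chr2:109280658-109280737, plus strand): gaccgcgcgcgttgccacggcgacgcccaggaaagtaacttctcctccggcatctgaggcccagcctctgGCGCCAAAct
Kif1c (chr11:70700468-70700547, plus strand): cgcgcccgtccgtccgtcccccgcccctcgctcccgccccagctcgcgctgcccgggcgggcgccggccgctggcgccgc

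Mitotic kinesins were far lower in KO than in WT livers. Of the 14 genes, 13 had a mean FPKM of at least 0.1, and all 13 were at least 2-fold lower in KO, against 9.94% of all genes tested. Their log2 KO/WT ranged from -5.66 to -2.89 with a median of -4.36. The count depends on the classes, since Kif2a, which also acts at spindle poles, was placed among the other kinesins and was not 2-fold lower. With Kif2a counted as mitotic, 13 mitotic kinesins were still 2-fold lower, Kif2a was not, and the median was -4.21. In 11 of the 13 the KO value was itself under 0.1 FPKM, so these genes entered the count through their WT value and had to come out lower. In bulk liver, fewer cells of a type and less RNA per cell cannot be told apart, and so neither can fewer dividing cells and less kinesin mRNA in each of them. The remaining member, Kif2b, was listed at 0 in both libraries. At 3-fold the count was still 13, against 4.39% of all genes. At 8-fold, a threshold chosen after the values were seen, 12 of the 13 were lower in KO, against 1.34% of all genes. The summed FPKM of the mitotic kinesins was 54.8 in WT and 0.885 in KO, which is a WT/KO ratio of 61.9, and their share of all kinesin FPKM was 32.3% in WT and 0.745% in KO.

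**Figure D1:**
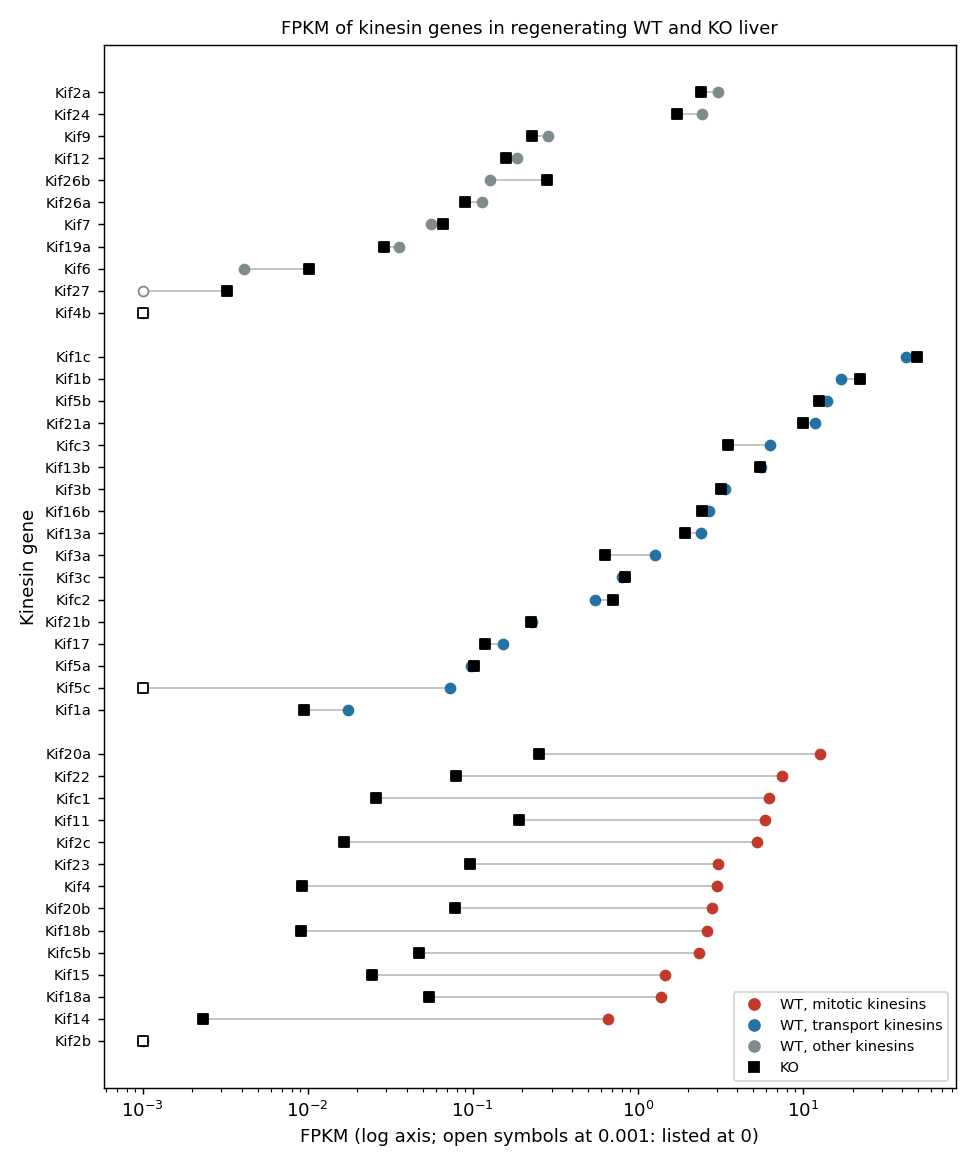
FPKM of each kinesin gene on a log axis, with WT as a coloured circle and KO as a black square (1 library each), grouped by class and ordered by the WT value. The 13 mitotic kinesins with a value above 0 lie between 0.659 and 12.6 in WT and no higher than 0.251 in KO, while circle and square of most transport kinesins lie side by side; open symbols at the left edge stand for genes listed at 0.

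Kif11, which slides antiparallel microtubules apart and so separates the spindle poles, gave 5.89 FPKM in WT against 0.192 FPKM in KO. The WT/KO ratio was 30.7 with a 95% counting interval of 23.5 to 41.8. Such intervals were computed from fragments estimated with the depth above (1547 and 51.5 for Kif11), cover counting error only and say nothing of the difference between mice. Kif15, a motor that can take over part of the work of Kif11, was measured at 1.47 FPKM in WT, compared with 0.0245 FPKM in KO, for a ratio of 59.8 (27.03 to 141). The intervals of the pair overlapped, and both genes carry a CHR match 19 bases before the start in the stretches above.

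Of the motors that act on microtubule ends, Kif2c and Kif18b were near the floor of detection in KO. Kif2c (MCAK), which depolymerises microtubules at centromeres and corrects faulty attachments, stood at 5.26 FPKM in WT and at 0.0166 FPKM in KO. The latter corresponds to about 2.63 fragments, and the ratio was 316 (counting interval 94.6 to 1348). Kif18b, which shortens astral microtubules together with Kif2c, stood at 2.62 FPKM in WT and at 0.00913 FPKM, or about 1.69 fragments, in KO, with a ratio of 286 (66.7 to 2007). Kif18a, which steadies the plus ends at kinetochores so that chromosomes align, was the least changed of this group by ratio. It gave 1.38 FPKM in WT against 0.0542 FPKM in KO, for a ratio of 25.5 (13.9 to 54.8), which overlapped neither the interval of Kif2c nor that of Kif18b. The row of Kif18b spans 263186 bases on chromosome 11 (NCBIM37, 102699787 to 102962972) against 19596 bases of the annotated gene, and 10 other annotated genes lie in the span, none of which shares exon bases with Kif18b.

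The chromokinesins bind chromosome arms. Kif22 (Kid), which pushes the arms away from the poles, was measured at 7.43 FPKM in WT, compared with 0.0794 FPKM in KO, for a ratio of 93.5 (49.7 to 208). Kif4, which also limits the growth of midzone microtubules, stood at 3.01 FPKM in WT and at 0.00928 FPKM in KO, about 2.58 fragments, with a ratio of 324 (94.8 to 1351). Kif4 and Kif2c had the highest ratios of all kinesins, but with so few fragments in KO their order among the other low members could not be told at this depth.

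Genes of the midzone and of cytokinesis included the most abundant mitotic kinesin. Kif20a (MKLP2), which brings the chromosomal passenger complex to the midzone, gave 12.6 FPKM in WT against 0.251 FPKM in KO, the highest mitotic value in each library, with a ratio of 50.3 (37.9 to 67.8). Kif23 (MKLP1), the motor subunit of centralspindlin, was measured at 3.05 FPKM in WT, compared with 0.0956 FPKM in KO, for a ratio of 31.9 (20.3 to 54.9). Kif20b, a late cytokinesis motor, stood at 2.80 FPKM in WT and at 0.0782 FPKM in KO with a ratio of 35.8 (24.1 to 56.8). The authors' table marks the comparison of the Kif20b row as failed, although it gives both values. These 3 intervals overlapped one another. Kif14, which works with citron kinase at the midbody, was the mitotic kinesin with the lowest level above 0, at 0.659 FPKM in WT and 0.00231 FPKM in KO. The KO value equals about 1.13 fragments, so its ratio of 286 had a counting interval from 57.4 to 12762. On the log2 scale with 0.1 FPKM added, Kif14 showed the smallest difference of the 13 genes (-2.89). The added value outweighs the KO level in 11 of the 13, and among the 13 Kif14 had the lowest WT value.

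Kifc1 (HSET) walks towards minus ends and bundles microtubules at the poles, and Kifc5b is its close relative on the same chromosome. Kifc1 gave 6.25 FPKM in WT against 0.0259 FPKM in KO, for a ratio of 241 (93.0 to 1325), and its log2 KO/WT of -5.66 was the lowest of all kinesins with 0.1 FPKM added. With 0.01 FPKM added the lowest was Kif2c (-7.63), and with 1 FPKM added it was Kif20a (-3.44). Kifc5b was measured at 2.35 FPKM in WT, compared with 0.0470 FPKM in KO, for a ratio of 50.01 (23.6 to 123). Of the 100-base windows in the annotated coding transcripts of Kifc1, 24.1% also occur in Kifc5b, and 19.0% of those of Kifc5b occur in Kifc1. Reads from these stretches can belong to either gene, so the split between the pair is uncertain. No other pair of kinesins with annotated coding transcripts shared a window of this length. Kif4b had no annotated transcript and was not compared.

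**Figure D2:**
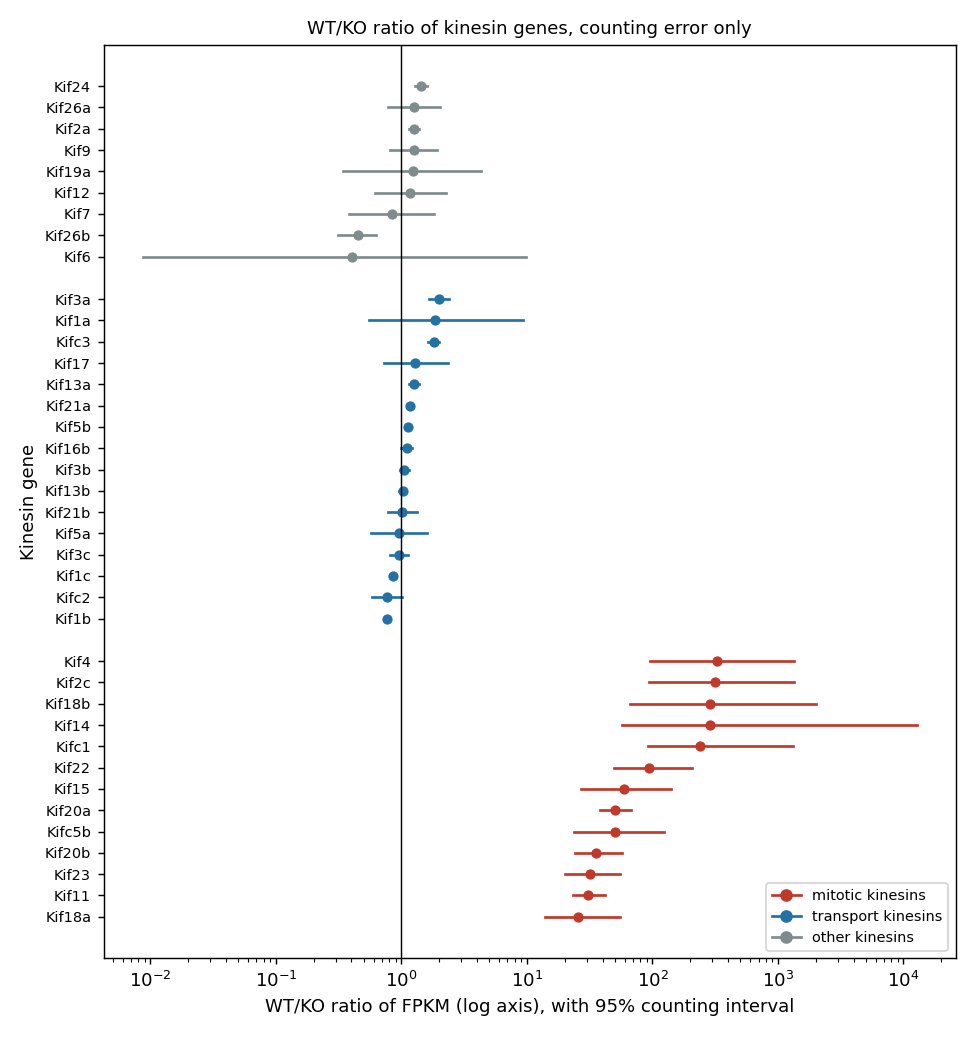
WT/KO ratio of FPKM for each kinesin gene with a value above 0 in both libraries, on a log axis, with bars for the 95% counting interval. The 13 mitotic kinesins lie between 25.5 and 324, and the transport and other kinesins lie around the line at 1, between 0.404 and 1.99.

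Reads from places where exons of different genes overlap can also be shared, because the kit does not mark strand. Among mitotic kinesins this touched Kif18a, which shares exon bases with Mettl15, Kif20a with Cdc23, and Kif4 with Pdzd11. These neighbours had rows of their own. Their FPKM was 3.82 in WT and 1.70 in KO for Mettl15, 5.99 and 4.35 for Cdc23, and 14.8 and 9.91 for Pdzd11. All 3 neighbours were thus well above the kinesin they overlap in the KO library.

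Transport kinesins differed little between the libraries. Of the 17 genes, 15 had a mean FPKM of at least 0.1, none of these was 2-fold lower and none 2-fold higher in KO, against 9.94% and 2.08% of all genes. No fold was tested here, with 1 library per genotype. The median log2 KO/WT of the class was -0.08 (range -0.89 to 0.38), and 10 of the 15 were lower in KO as deposited, against the 74.8% of all genes. Scaling the libraries to equal upper quartiles moved the median of all genes from -0.25 to -0.06 and that of the transport kinesins to 0.12, and left 5 of the 15 lower in KO. Centring the expressed genes at 0 left 4, so directions of small differences depend on the scaling. Under every scaling the transport median stayed above that of all genes and far above that of the mitotic kinesins. The mitotic median lay 4.28 below the transport median on the log2 scale. Summed over the class, transport kinesins came to 108.7 FPKM in WT and 112.9 FPKM in KO.

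**Figure D3:**
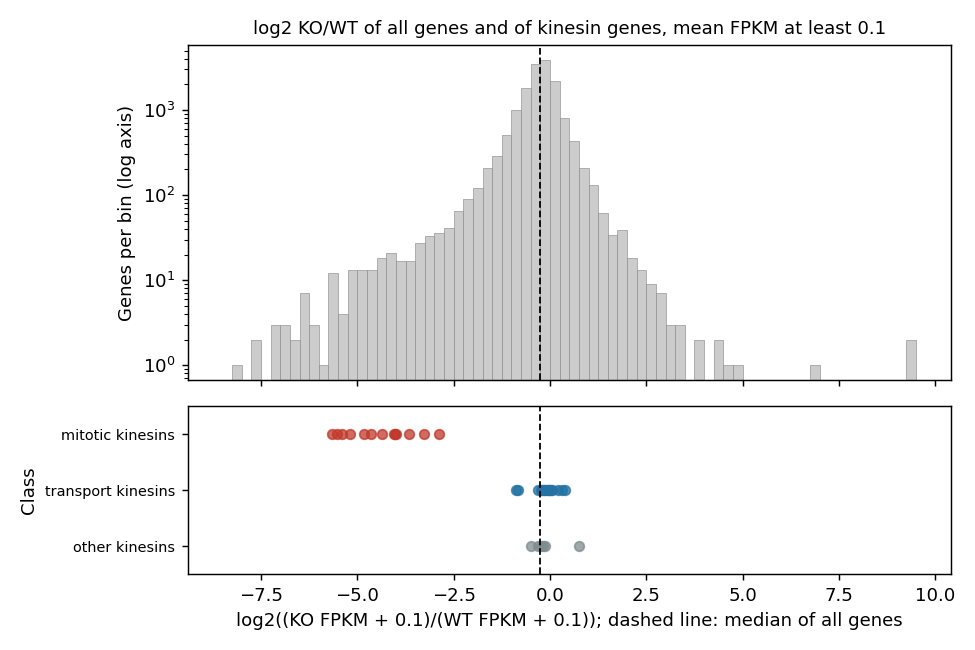
Histogram of log2 KO/WT over the 15727 genes above the filter of 0.1 FPKM (log count axis), and below it each kinesin gene that passed the same filter, by class. The dashed line is the median of all genes (-0.25). The 13 mitotic kinesins lie in the left tail, from -5.66 to -2.89. Transport kinesins lie on both sides of the line, most of them to its right, with a median of -0.08.

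The 4 transport kinesins with the highest level kept their order in both libraries. Kif1c, a motor of secretory vesicles, stood at 42.2 FPKM in WT and at 48.9 FPKM in KO. Kif1b, which carries mitochondria and vesicle precursors, gave 17.0 FPKM in WT against 22.1 FPKM in KO. They were followed by Kif5b, the broadly expressed heavy chain of conventional kinesin, with 14.1 FPKM in WT and 12.5 FPKM in KO. Kif21a, which moves along and restrains growing microtubule ends, was measured at 11.9 FPKM in WT, compared with 10.1 FPKM in KO. The KO/WT ratio was 1.16 for Kif1c (counting interval 1.14 to 1.19) and 1.301 for Kif1b (1.27 to 1.34), and both stayed higher in KO under each scaling. For Kif5b the WT/KO ratio of 1.12 (1.07 to 1.17) turned under equal upper quartiles, and Kif21a had a log2 KO/WT of -0.23 as deposited, -0.03 under equal upper quartiles and 0.0018 once the expressed genes were centred at 0. The counting intervals of these abundant genes are narrow only because many fragments were counted.

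The largest differences among transport kinesins were those of Kif3a and Kifc3. Kif3a, which pairs with Kif3b and the adaptor Kifap3 in the motor that builds cilia, stood at 1.27 FPKM in WT and at 0.636 FPKM in KO, which is a WT/KO ratio of 1.99 (counting interval 1.67 to 2.39). Kif3b gave 3.36 FPKM in WT against 3.18 FPKM in KO, with an interval of 0.968 to 1.15 that included 1, so the partners of 1 motor complex differed in their WT/KO ratio beyond counting error. Kifap3 lay between them with a ratio of 1.44 (1.22 to 1.69), and the alternative partner Kif3c was measured at 0.796 FPKM in WT, compared with 0.836 FPKM in KO. Exon bases of Kif3a overlap Il4, which had an FPKM of 0.159 in WT and was listed at 0 in KO. Kifc3, a minus-end motor at cell junctions, stood at 6.31 FPKM in WT and at 3.50 FPKM in KO, with a ratio of 1.80 (1.64 to 1.98). Both Kif3a and Kifc3 stayed lower in KO under each scaling, and they were the only ones past 1.5-fold on the log2 scale used among the 15 transport kinesins above the filter, where 22.9% of all genes were lower in KO. None of the 15 was 1.5-fold higher, against 4.93% of all genes.

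Motors of endosomes were close between the genotypes. Kif13a gave 2.42 FPKM in WT against 1.93 FPKM in KO, Kif13b 5.59 and 5.47, and Kif16b, which moves early endosomes, 2.70 and 2.46. Kif13a had the largest WT/KO ratio of the 3, at 1.26 (1.14 to 1.39), and its direction held under each scaling, whereas Kif13b and Kif16b turned under equal upper quartiles. The authors' table marks the comparison of the Kif13b row as failed. Kifc2 was measured at 0.549 FPKM in WT, compared with 0.709 FPKM in KO, with a counting interval of the WT/KO ratio from 0.587 to 1.02. Kif21b, known mainly from neurons and lymphocytes, had 0.229 in WT and 0.225 in KO.

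Kinesins known mainly from neurons were low in both libraries. Kif5a stood at 0.0981 FPKM in WT and at 0.102 FPKM in KO, and Kif1a 0.0176 and 0.00948. Kif17 had 0.153 and 0.119 in a row that also names Sh2d5, so the value belongs to the joint locus. For these 3 genes the counting interval of the ratio included 1. Kif5c had an FPKM of 0.0725, about 27.1 fragments, in WT and was listed at 0 in KO. An exact 0 in a table of estimates can be a failed estimate, so no fold is given for Kif5c.

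The other kinesins were low, apart from Kif2a and Kif24, and none of the 6 above the filter of 0.1 FPKM was 2-fold lower or higher in KO on the log2 scale used, against 9.94% and 2.08% of all genes. Kif2a, a depolymerase of spindle poles and of resting cells, gave 3.05 FPKM in WT against 2.42 FPKM in KO, for a ratio of 1.26 (1.14 to 1.39). It is related to Kif2c, but the intervals of their WT/KO ratios lay far apart. Kif24, a depolymerase at centrioles that holds back cilia, had 2.45 in WT and 1.72 in KO, for a ratio of 1.42 (1.27 to 1.59). Kif26b, an atypical kinesin that takes part in cell adhesion, was the kinesin with the largest KO/WT ratio among those above the filter, at 0.127 FPKM in WT and 0.281 FPKM in KO. Its KO/WT ratio was 2.21 (counting interval 1.59 to 3.17), while the log2 difference with 0.1 FPKM added was 0.75.

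The remaining members showed no difference that could be told from counting error. Kif9, a motor of motile cilia, was measured at 0.287 FPKM in WT, compared with 0.230 FPKM in KO, Kif12 had 0.186 and 0.160, and Kif26a 0.114 and 0.0901. Kif7, which acts in Hedgehog signalling at the cilium, had 0.0555 in WT and 0.0658 in KO, and Kif19a, which sets the length of cilia, had 0.0358 and 0.0288. Kif6 had 0.00412 in WT and 0.0102 in KO, at most about 2.01 fragments in either library. Kif27 was listed at 0 in WT and had 0.00324 in KO, less than 1 fragment, and Kif4b was listed at 0 in both.

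Over the whole promoter window, from 250 bases before to 50 after the start, motifs were counted in the members that had an entry in the RefSeq table. These were 13 of 14 mitotic, 11 of 17 transport and 9 of 11 other kinesins. The entries of Kif20a, Kif5a, Kif5b, Kif13b, Kif21b, Kifc2, Kifc3, Kif19a and Kif4b were missing. A CHR match was present in 11 of 13 mitotic kinesin genes (84.6%), in 1 of 11 transport genes (Kif1a) and in 19.2% of all 32851 promoters. CCAAT was present in 9 of 13 mitotic and 3 of 11 transport genes and in 37.4% of all promoters. CHR and CCAAT together were found in 8 of 13 mitotic genes, namely Kif11, Kif14, Kif18b, Kif22, Kif23, Kif4, Kifc1 and Kifc5b, in none of the 11 transport genes and in 7.52% of all promoters. The first base of the CHR match nearest to the start lay 19 bases before it in Kif11 and Kif15, 17 before it in Kif22, and at positions 2, 3 and 4 after it in Kifc1, Kif23 and Kif18b.

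**Figure D4:**
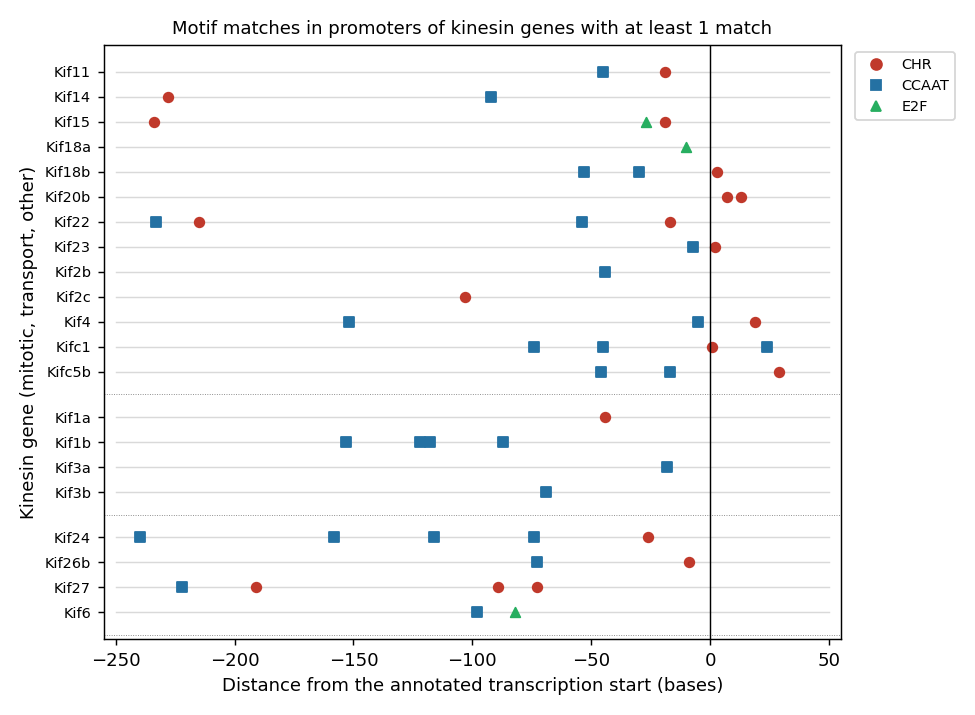
Positions of CHR, CCAAT and E2F matches relative to the annotated start, in bases, for kinesin genes with a match in the window of 250 bases before to 50 after it (Kif1b has 2 overlapping windows, drawn together). In the upper block, the CHR match nearest to the start lies at -228 in Kif14 and -103 in Kif2c and within 30 bases of it in the other mitotic genes with CHR, of which Kif15 and Kif22 hold a further match at -234 and -215. CHR is drawn for Kif1a alone in the transport block.

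E2F matches were present in 2 of 13 mitotic kinesin genes (15.4%), Kif15 and Kif18a, in Kif6 among the others, in no transport gene and in 2.96% of all promoters. Kif2b, listed at 0 in both libraries, held CCAAT without CHR. Kif24 and Kif26b held CHR and CCAAT although neither was 2-fold lower in KO. Kif27 held both motifs too, but it was listed at 0 in WT and so could not come out lower in KO. A match is a description of letters in the window, and binding was not measured.

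Cenpe and Stard9, kinesins with other names, differed from each other. Cenpe, the kinetochore motor that carries chromosomes to the spindle equator, stood at 2.02 FPKM in WT and at 0.00854 FPKM in KO, for a ratio of 237 (counting interval 85.6 to 809). Stard9, a motor of spindle pole cohesion that is also found in resting cells, had 0.715 in WT and 0.464 in KO, for a ratio of 1.54 (1.34 to 1.76), summed over 2 rows, of which 1 shares exon bases with Cdan1. Mki67, a marker of cycling cells, gave 10.9 FPKM in WT against 0.0445 FPKM in KO.

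Partners of the mitotic kinesins were lower with them. Of 20 genes listed for the spindle and midzone, 17 were at least 2-fold lower in KO and none higher on the log2 scale with 0.1 FPKM added, against 9.94% and 2.08% of all genes. The median log2 KO/WT of the list was -4.79. In 7 of the 20 the KO value was under 0.1 FPKM, so these passed through their WT value and had to come out lower. The 3 exceptions were Numa1, Mapre1 and Cit, and Cit was one only on that scale (-0.88), since its 0.276 FPKM in WT and 0.104 FPKM in KO are a plain ratio of 2.66 (1.94 to 3.70). Mapre1 (EB1), which tracks microtubule plus ends in resting cells too, was among the most abundant, at 12.8 FPKM in WT and 7.63 FPKM in KO. Prc1, the midzone bundler that recruits Kif4, had 13.5 in WT and 0.0552 in KO. Birc5 (survivin), a subunit of the passenger complex carried by Kif20a, had 25.5 in WT and 0.111 in KO, and Hmmr 12.1 and 0.0367. Aurka, the spindle pole kinase, had 16.8 in WT and 1.52 in KO, so its WT/KO ratio of 11.1 (9.43 to 13.1) lay below the interval of each mitotic kinesin.

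Partners of the transport kinesins lay near the median of all genes. In the list of light chains and adaptors, 17 genes were above the filter. None of these was 2-fold lower or higher on the log2 scale with 0.1 FPKM added, against 9.94% and 2.08% of all genes. Their median log2 KO/WT was -0.26 beside -0.25 for all genes. Klc4, a light chain of conventional kinesin whose row spans 19 other annotated genes, was measured at 20.1 FPKM in WT, compared with 15.2 FPKM in KO. Arl8b, which links kinesin to lysosomes, had 26.0 FPKM in WT and 25.03 FPKM in KO. Rhot2, a mitochondrial adaptor, had 35.7 and 29.7 in a row that names several genes. Jph1 was on the list although it encodes a junctophilin, which is not a kinesin light chain or adaptor. It showed the largest log2 difference of this list (-0.75), with 0.294 in WT and 0.134 in KO, although its plain WT/KO ratio was 2.19 (1.21 to 4.33).

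Cytoplasmic dynein and dynactin, which move cargo in the direction opposite to most kinesins, were centred on a log2 KO/WT of -0.21 across 22 genes, none of them 2-fold lower or higher on that scale, against 9.94% and 2.08% of all genes. The light chains Dynll2 (79.3 in WT and 60.7 in KO), Dynll1 (66.6 and 53.4) and Dynlrb1 (59.2 and 60.5) were the most abundant. Nde1 and Ndel1, regulators that also act on the mitotic spindle, had the largest log2 differences of the list, -0.80 and -0.66, followed by Dynlt1a (-0.49).

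**Figure D5:**
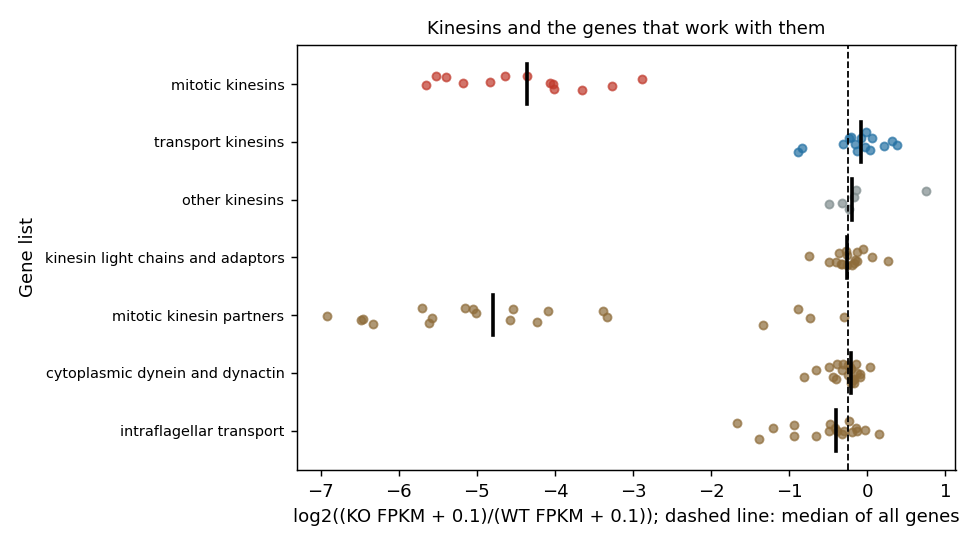
log2 KO/WT of the genes above the filter in each list (points, spread vertically for legibility), with the median of each list as a black bar and the median of all genes as a dashed line. Mitotic kinesins and their partners have medians of -4.36 and -4.79; the medians of transport kinesins, adaptors, dynein and dynactin, and intraflagellar transport lie between -0.40 and -0.08.

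Summed markers of most nonparenchymal cell types were also lower in KO, by less than the mitotic kinesins. The counts of lower markers stand beside the 74.8% of all genes that were lower in KO. The summed FPKM of 6 macrophage markers was 41.2 in WT and 26.5 in KO, with 5 of 6 lower in KO. For 6 endothelial markers the sums were 48.5 and 34.6, with 6 of 6 lower, and for 6 stellate cell markers 30.7 and 14.3, with 6 of 6 lower. Among the stellate markers, Col1a1 (8.56 and 1.75) and Acta2 (5.57 and 1.26) differed most. The cholangiocyte sums were 29.8 and 25.7, most of it Spp1 (24.5 and 22.7), while Krt19 had 1.72 and 0.559 and Krt7 1.12 and 0.360. The erythroid sums were 295.9 and 252.3, with 4 of 5 markers above the filter lower. Alas2 went the other way, with 20.6 in WT and 37.5 in KO. Neutrophil markers summed to 12.9 and 6.93, with Ly6g and Mpo at 0 in both libraries, and lymphocyte markers to 0.816 and 0.401. Markers of neurons and Schwann cells summed to 1.35 and 1.70, with Snap25 at 0 in both. Hepatocyte markers summed to 11786 and 11480, with 3 of 6 lower. Among these, Cps1 stood at 1597 FPKM in WT and 743 FPKM in KO, and Tat at 1115 FPKM and 595 FPKM. The part of these cell types in the kinesin values was not tested.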

How the data were processed

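The members and gene lists were chosen with earlier results of these data known. Per the labels and methods, the authors aligned reads of 1 WT and 1 KO library to NCBI37 (mm9) with TopHat 2.0.0, assembled transcripts with Cufflinks 1.3.0 and estimated FPKM with Cuffdiff. The deposited FPKM values, 1 per assembled locus and library, were used. Columns with the authors' fold changes, statistics and p-values were not used. Of 38016 loci, the 21 marked HIDATA were left out, none of them a kinesin. Rows naming several symbols were given to each, and rows of 1 symbol were summed.

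Log2 ratios used a pseudocount of 0.1 FPKM, which understates changes of low genes, and lists a mean FPKM of at least 0.1. Fragments were estimated from 89 (WT) and 78 (KO) single-exon genes of 500 to 8000 bases. Their FPKM times length in kb lay in a preset window from 0.012 to 0.026, taken to hold 1 fragment. The medians, 0.0184 in WT and 0.0180 in KO, are bounded by that window, so all fragment numbers and counting intervals depend on it. Lengths were those of the longest coding transcript in GENCODE vM1 on NCBIM37. Intervals are exact (Clopper-Pearson) at 95%. The estimates can be off where several transcripts are used. Of 41 annotated kinesin genes, 17 had a locus with the annotated start and end. Coordinates count from 1. Promoters came from RefSeq, and each printed stretch has 1 exact match in NCBIM37. Motifs were chosen after the values were seen.

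The genes named were all kinesins, Cenpe, Stard9, Ppard, Mki67 and, of 4 partner lists, the 3 with the highest mean and the 3 with the largest log2 ratio. Other genes named (Ttr, Apoa1, Cps1, Tat and the other cell type markers, Numa1, Cit, Wdr19, Ift122, Ift81, Ift88, Cdan1 and genes sharing exon bases) were chosen after their values were seen. Only the 2-fold call, its direction and the counting interval were tested on simulated counts. These covered genes with at least 1 FPKM in WT, with 8-fold changes in some of them and a fixed depth. The depth estimate, the filter, shared reads, motifs and genes with lower WT values were not covered. Python 3.11.15, pandas 2.3.3 and scipy 1.17.1 were used. Alternatives covered pseudocount, filter, scaling, row handling, class lists and fold. One gene that shares exon bases with a kinesin is not reported here.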

Additional observations from a re-analysis of the deposited data

How the results depend on the processing

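No paired analysis was possible because WT and KO had 1 library each. No leave-one-out analysis was possible either. The pseudocount decided the size of the mitotic median, which was -5.60 with 0.01 FPKM and -1.89 with 1 FPKM added in place of 0.1, and the mitotic minus transport difference moved with it to -5.52 and -1.84. The transport median changed sign to 0.12 with equal upper quartiles and 0.15 once the expressed genes were centred at 0. With 1.5-fold in place of 2-fold, 2 transport kinesins were lower in KO instead of 0. Between 10 and 13 mitotic kinesins were lower in KO by at least the fold set, 2-fold unless another was tried, under every alternative run. The count of 10 came with a mean FPKM of at least 1, which no other mitotic kinesin reached. Leaving out Kifc5b and the 8-fold count were chosen after seeing the data, and without Kifc5b the mitotic median was -4.50. Under the pseudocount and scaling alternatives, single kinesins kept their value within counting error in 164 of 210 recomputed values. These include Kif2b and Kif4b, at 0 in both libraries, and Kif5c and Kif27, at 0 in 1 library. None of these genes could be marked as moved. Most of the 13 mitotic kinesins above 0 moved beyond counting error with either other pseudocount, though none did under a scaling. Each kinesin had 1 row, so the handling of rows could not move any kinesin, and none of the 13 genes past 2-fold changed direction. Depth limits the ratios of Kif14, Kif18b, Kif2c, Kif4 and Kifc1, which rest on about 3 fragments or fewer in KO.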

Other observations

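Genes of intraflagellar transport, the cargo trains that the Kif3 motor pulls along cilia, were mostly lower in KO. The list was centred on a log2 KO/WT of -0.40 across 18 genes, beside -0.25 for all genes. As deposited, 17 of the 18 were lower in KO, against 74.8% of all genes. Some of these differences were small, such as those of Ift81 (-0.03) and Ift88 (-0.13), and no other scaling was run for this list. At least 2-fold lower were 3 of 18, against 9.94% of all genes. Ift80 stood at 3.25 FPKM in WT and at 0.952 FPKM in KO, for a ratio of 3.41 (counting interval 2.92 to 3.98), Dync2li1, a chain of the returning dynein motor, had 0.434 and 0.103, and Ttc21b had 0.937 and 0.349. Just short of 2-fold on the log2 scale used were Wdr19 (-0.94) and Ift122 (-0.94). Their plain WT/KO ratios were 2.33 (1.69 to 3.30) and 2.04 (1.69 to 2.48). The most abundant members, Ift20 (25.6 in WT and 28.4 in KO), Ift46 (17.7 and 13.5) and Ift52 (9.11 and 7.93), were closer between the libraries, so the list was not uniform. The rows of Ift80, Dync2li1 and Wdr19 overlap no other annotated gene. Cholangiocytes, the ciliated epithelial cells of the liver, had 5 of 5 markers above the filter lower in KO as deposited, beside the same 74.8% of all genes. Of these markers, Sox9 (-0.13) and Spp1 (-0.11) lay above the median of all genes. The counting interval of Sox9 included 1 (0.955 to 1.26), and no other scaling was run for the markers. The part of cholangiocytes in the intraflagellar transport values was not tested.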
